A study of Lolium multiflorum with 4 samples.

Results

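The contigs described here are 139 assembled transcripts of Lolium multiflorum (Italian ryegrass) that were scarce before cadmium and abundant 24 h later, out of 111761 in the table. They were selected on their measured values: at least 100 FPKM in each 24 h library, a log2 ratio of (24 h + 1) over (0 h + 1) FPKM of 5 or more in both LmHC and LmLC, and a value above 0 in at least 1 of the 0 h libraries. FPKM counts sequenced fragments relative to contig length and to the number of fragments mapped in that library. The size of the increase and the level at 24 h were therefore fixed by the choice of contigs, and they are given as a description without a test.

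LmHC (high cadmium) and LmLC (low cadmium) were read as 2 lines, although the sample labels enter these names as a treatment. Seedlings aged 2 weeks were placed in 300 µM cadmium chloride, and both lines were harvested at 0 h and at 24 h. Each of the 4 groups had 1 library, so no error between replicates can be given. A model with line and time as additive terms would leave 1 residual degree of freedom, at the cost of counting any line difference in response as noise, and it was not run. The labels name neither the tissue nor the number of plants in a library, and an untreated library at 24 h was not analysed here, so the effects of cadmium and of elapsed time cannot be told apart.

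Cadmium ions enter plant cells largely through carriers for essential metals, bind sulfur groups of proteins and disturb the redox state of the cell. Plants are known to answer with metal-binding peptides and proteins, among them phytochelatins and metallothioneins, with chaperones that hold damaged proteins, and with pumps that move the metal into the vacuole. The files do not pair the contigs with genes, so they are given below by their identifiers and no role is assigned to any of them. A contig name that starts with CL and a number belongs to an assembly cluster, a group of similar contigs that may be alleles, splice forms or copies of a gene, whereas a contig named Unigene stands alone.

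At 24 h the 139 contigs held a sizeable share of all FPKM in each line, from a trace at 0 h. In LmHC their summed FPKM was 308 at 0 h and 39155 at 24 h, which is 0.0393% and 5.00% of the column total. In LmLC the sums were 289 and 37096 FPKM, or 0.0364% and 4.66%. The summed level was thus 127 times higher at 24 h in LmHC and 128 times higher in LmLC. The column totals themselves lay between 782476 and 795368 FPKM.

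**Figure D1:**
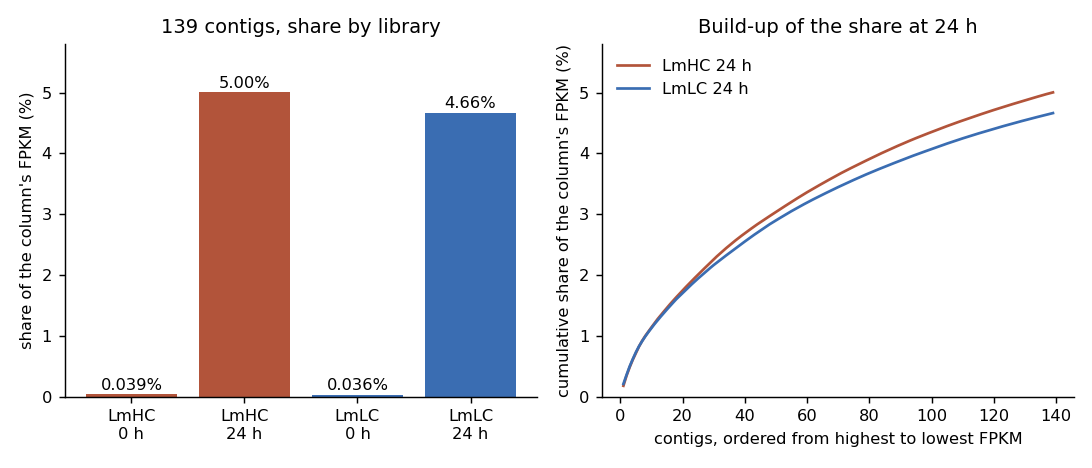
Share of the column's FPKM (percent) held by the 139 contigs in each of the 4 libraries (bars, left), and the cumulative share at 24 h with contigs ordered from highest to lowest (lines, right). The share was 0.0393% and 0.0364% at 0 h, and 5.00% and 4.66% at 24 h in LmHC and LmLC, and it built up gradually, with the 10 highest contigs giving 22.8% of the sum in LmHC and 24.2% in LmLC.

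The 24 h share was spread over many contigs. The 10 highest gave 22.8% of the summed FPKM of the set in LmHC and 24.2% in LmLC. Levels at 24 h ran from 102.44 to 1414.56 FPKM in LmHC, with a median of 218.76, and from 100.09 to 1683.61 FPKM in LmLC, with a median of 191.88. At 0 h the median was 0.97 FPKM in LmHC and 0.99 FPKM in LmLC, and the highest value in either line was 14.79 FPKM. By rank among all contigs, the set had a median rank of 57854 at 0 h and 314 at 24 h in LmHC, and of 58626 and 394 in LmLC. No contig of the set was among the 100 most abundant at 0 h in either line, and 23 in LmHC and 20 in LmLC were at 24 h.

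The contigs of the set were compared with all 973 contigs that reached 100 FPKM in both 24 h libraries. Together these 973 held 21.3% of the FPKM at 0 h and 28.3% at 24 h in LmHC, and 21.7% and 27.8% in LmLC. The 139 contigs made up 14.3% of the 973 by number, and their own gain equalled 70.5% of the net gain in LmHC and 75.4% in LmLC. Of the other 834, at 24 h 391 exceeded 0 h by 2-fold or more in both lines and 142 fell short of it by as much. Their median log2 change was 0.86 in LmHC and 0.88 in LmLC.

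A log2 change of 5 or more in both lines was seen in 14.5% of the 973 contigs and in 0.429% of the 70885 contigs with a mean of at least 1 FPKM over the 4 libraries (called expressed below). These shares contain the values used to choose the set. Of the 973, a further 9 passed this limit in LmHC alone and 24 in LmLC alone. The mirror image of the rule, with 0 h and 24 h exchanged, found 0 contigs: of 986 contigs that reached 100 FPKM in each 0 h library, the lowest log2 change was -4.46 in LmHC and -4.65 in LmLC. No decrease of an abundant contig thus matched these increases in size on this scale.

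**Figure D2:**
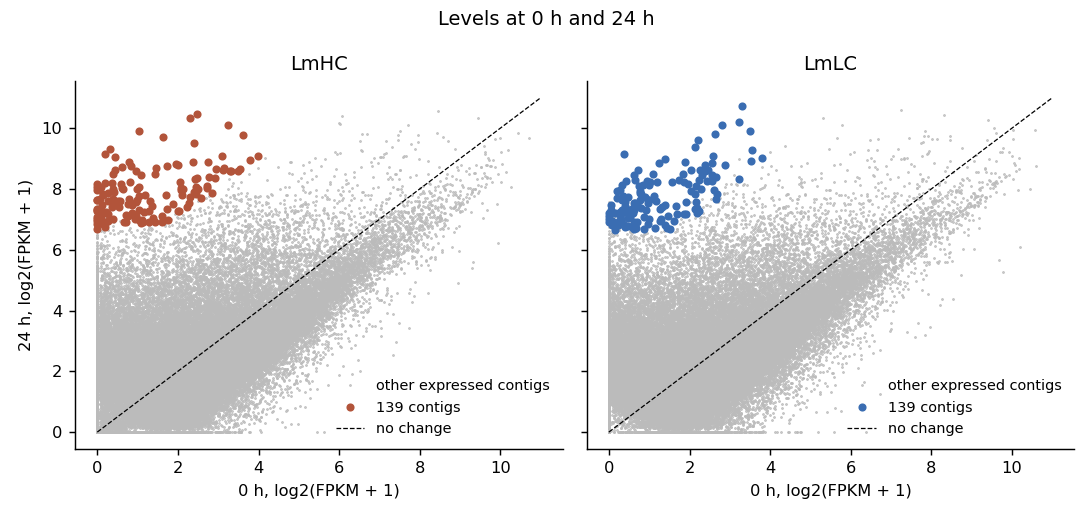
Level at 24 h against level at 0 h on the log2(FPKM + 1) scale in LmHC (left) and LmLC (right), with 1 point for each contig and the 139 contigs in colour over the other expressed contigs in grey. The coloured points lie at the upper left, at a median of 0.97 and 0.99 FPKM at 0 h and of 218.76 and 191.88 FPKM at 24 h.

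The limits of the rule cut through a continuous range. Just inside the level limit was CL15173.Contig2_All, with 100.09 FPKM in LmLC at 24 h, and just outside was Unigene15306_All, with 98.49 FPKM in LmHC at 24 h. Just inside the limit on the change was CL4771.Contig10_All, with a log2 change of 5.01 in both lines, and just outside was CL15103.Contig4_All, with 4.96 in LmHC and 5.28 in LmLC. Failing the level limit alone were 137 contigs, of which 94 had at least 50 FPKM in both 24 h libraries. Failing the limit on the change alone were 832 contigs, of which 81 had a log2 change of at least 4 in both lines.

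The most abundant contig of the set was CL14765.Contig1_All. It had 4.53 FPKM at 0 h and 1414.56 FPKM at 24 h in LmHC, and 8.95 and 1683.61 FPKM in LmLC. At 24 h this was the highest value of any contig in LmLC and rank 2 in LmHC, from ranks 16158 and 27326 at 0 h. The next in LmHC was CL12704.Contig1_All, with 3.92 FPKM at 0 h and 1289.89 FPKM at 24 h, and with 5.97 and 1111.54 FPKM in LmLC. In LmLC the next was CL5223.Contig7_All, with 8.44 FPKM at 0 h and 1171.27 FPKM at 24 h, and with 8.49 and 1091.24 FPKM in LmHC. These were the 3 contigs of the set above 1000 FPKM at 24 h in both lines, where 9 contigs of the whole table passed that level in each line.

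The log2 change ranged from 5.01 to 9.0 in LmHC with a median of 6.69, and from 5.01 to 8.78 in LmLC with a median of 6.57. The median over expressed contigs was -0.20 in LmHC and -0.14 in LmLC. In LmHC, 44 contigs of the set had a log2 change of 5 to 6, 39 of 6 to 7, 44 of 7 to 8 and 12 of 8 or more. In LmLC these numbers were 36, 65, 37 and 1, so the upper end was fuller in LmHC on this scale. Some of the 12 came from the same clusters, CL3835 and CL6598, so they are not 12 separate cases. With 0.1 FPKM added in place of 1, the median was 7.41 in both lines, over the 149 contigs that then met the rule. Because 1 FPKM was added to each level, the change of contigs that started under 1 FPKM is understated.

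The 2 largest changes were in the same contigs in both lines. Unigene20305_All went from 0.14 to 569.27 FPKM in LmHC and from 0.30 to 568.85 FPKM in LmLC, and it was the contig at 8 or more in LmLC. CL3835.Contig11_All went from 0.24 to 632.09 FPKM in LmHC and from 0.66 to 396.48 FPKM in LmLC. The smallest changes were in contigs that started higher. CL4771.Contig10_All went from 6.16 to 229.80 FPKM in LmHC and from 5.31 to 202.46 FPKM in LmLC. CL5075.Contig4_All went from 10.29 to 388.33 FPKM in LmHC (log2 change 5.11) and from 4.84 to 351.33 FPKM in LmLC (log2 change 5.91). CL2131.Contig3_All went from 3.83 to 183.87 FPKM in LmHC (log2 change 5.26) and from 3.54 to 145.80 FPKM in LmLC (log2 change 5.02). CL5075.Contig4_All differed between the lines mainly at 0 h, and CL2131.Contig3_All by little at either time.

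The contigs started from very different levels at 0 h. Under 1 FPKM in both 0 h libraries were 63 contigs, at 1 FPKM or more in both were 61, and 15 lay on either side of 1 FPKM in the 2 lines. The 63 low starters reached a median of 178.02 FPKM in LmHC and 157.24 FPKM in LmLC at 24 h, and they gave 34.6% and 30.9% of the summed level of the set. The 61 higher starters reached 264.59 and 301.23 FPKM and gave 56.9% and 60.4%. Listed at 0 at 0 h were 13 contigs in LmHC and 4 in LmLC. Unigene20302_All was listed at 0 in LmHC and had 0.25 FPKM in LmLC at 0 h, and it had 282.44 and 279.57 FPKM at 24 h. Unigene46722_All was likewise listed at 0 in LmHC, with 0.38 FPKM in LmLC, and had 263.93 and 211.70 FPKM at 24 h.

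On the LmLC side, CL3420.Contig13_All was listed at 0 at 0 h and had 0.04 FPKM in LmHC, and it had 145.82 FPKM in LmLC and 203.94 FPKM in LmHC at 24 h. CL5223.Contig1_All was also listed at 0 in LmLC at 0 h, with 0.09 FPKM in LmHC, and had 119.92 and 147.36 FPKM at 24 h. Levels this low rest on few fragments, and counting intervals cannot be computed without the depth of the libraries. Only 2 contigs of the table met the other limits while listed at 0 in both 0 h libraries. They were CL1203.Contig2_All, with 237.90 FPKM in LmHC and 142.51 FPKM in LmLC at 24 h, and Unigene20306_All, with 174.30 and 187.91 FPKM.

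Levels at 24 h were close between the lines for most of the set. The rule asked for a high level in both lines, so contigs high in a single line were left out and part of this closeness was fixed by the choice. The log2 ratio of LmHC over LmLC, with 1 FPKM added, had a median of 0.10 and a standard deviation across contigs of 0.37, and 118 of 139 contigs (84.9%) lay within 0.5 of equal. Among the other 834 abundant contigs the median was -0.01, the standard deviation 0.33, and 89.4% lay within 0.5. At least 2-fold apart were 1 contig of the set toward LmHC and 2 toward LmLC. The background was 0.36% toward LmHC and 1.08% toward LmLC in the 834 contigs. It was 4.46% and 7.13% in all expressed contigs, which did not have to be high in both lines.

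The contig past 2-fold toward LmHC was Unigene26079_All, with 290.63 FPKM in LmHC and 144.57 FPKM in LmLC at 24 h, from 0.29 and 0.19 FPKM. It lay on the limit, at a log2 ratio of 1.00, and CL3835.Contig13_All followed at 0.98, with 393.27 and 198.39 FPKM. Toward LmLC, CL15152.Contig4_All had 301.23 FPKM in LmLC and 118.84 FPKM in LmHC at 24 h, from 1.97 and 1.69 FPKM. Unigene20353_All had 296.60 FPKM in LmLC and 119.22 FPKM in LmHC, from 1.03 and 1.21 FPKM. Both were alike between the lines at 0 h, so the gap was present at 24 h alone.

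Small differences between the lines at 24 h leaned toward LmHC. LmHC had the higher value for 90 of the 139 contigs (64.7%) and LmLC for 49, and among the other abundant contigs LmHC was higher for 48.6%. Counting each cluster once by its summed contigs of the set, LmHC was higher in 60 of 96 units and LmLC in 35. With median-of-ratios scaling, LmHC had the higher value for 96 of the 139 contigs and for 59.1% of the other abundant contigs, so the distance between the set and the rest was narrower there. With 1 library of each line at 24 h, this lean cannot be told apart from a difference between the plants or library preparations.

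At 0 h the log2 ratio of LmHC over LmLC, with 1 FPKM added, had a median of 0.05 and a standard deviation of 0.42. Many contigs of the set were under 1 FPKM at 0 h, so the added 1 FPKM pulls this ratio toward 0. CL4030.Contig12_All, with 0.10 FPKM in LmHC and 1.19 FPKM in LmLC, had a ratio of -0.99. At least 2-fold apart on this scale were 2 contigs toward LmHC and 1 toward LmLC. The background at 0 h, not matched for level, was 0.6% and 0.24% in the other abundant contigs, and 2.48% and 4.43% in expressed contigs. Of the 63 low starters 39 (61.9%) were higher in LmLC, where 48.2% of 11208 other expressed contigs under 1 FPKM in both 0 h libraries were. Of the 61 higher starters 43 (70.5%) were higher in LmHC, where 53.9% of 49828 other expressed contigs at 1 FPKM or more in both were. Of the 39, 12 belonged to clusters CL4030 and CL3835, and outside these clusters 27 of 50 low starters were higher in LmLC.

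Across the 139 contigs, Pearson's r between the log2 changes of the lines was 0.83 and Spearman's rho 0.83. The contigs were chosen on these same changes and share their libraries and in part their clusters, so these values are a description and no evidence that the lines respond alike. The difference of the changes, LmHC minus LmLC, had a median of 0.15 and a standard deviation of 0.54, and 86 contigs (61.9%) changed more in LmHC and 53 more in LmLC, where 50.4% of the other abundant contigs changed more in LmHC. Counting each cluster once, the numbers were 53 and 43. With median-of-ratios scaling, 101 contigs of the set and 64.9% of the other abundant contigs changed more in LmHC. A difference of at least 2-fold was seen in 6 contigs toward LmHC and 3 toward LmLC. The background, not matched for the level at 0 h, was 0.959% and 3.6% in the other abundant contigs and 6.7% and 8.12% in expressed contigs. The 6 were CL4030.Contig12_All, Unigene36441_All and, from a single cluster, CL3835.Contig6_All, CL3835.Contig11_All, CL3835.Contig12_All and CL3835.Contig13_All. They are thus not 6 separate cases. The low starters lay toward LmHC, with 50 of 63 changing more in that line. With 0.1 FPKM added in place of 1, 44 of these 63 and 79 of all 139 contigs changed more in LmHC. The share among other contigs that started this low was not computed. Of the higher starters 26 of 61 changed more in LmHC, but 38 of 61 with median-of-ratios scaling, which turned their balance.

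**Figure D3:**
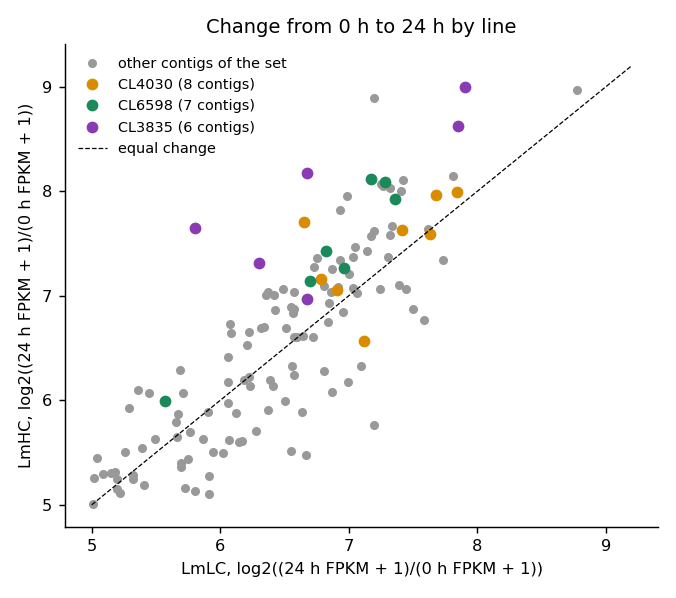
Log2 change in LmHC against log2 change in LmLC, with 1 point for each of the 139 contigs and the contigs of the clusters CL4030, CL6598 and CL3835 in colour. The points run along the line of equal change (Pearson's r 0.83). All 7 contigs of CL6598, all 6 of CL3835 and 6 of the 8 of CL4030 lie above that line, toward LmHC.

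The set was partly made of groups of related contigs. In clusters were 88 of the 139 contigs (63.3%), against 54.7% of the table and 69.8% of the other abundant contigs, and 51 stood alone. The 88 came from 45 of the 15237 clusters. In 20 of these clusters 2 or more contigs met the rule, with 63 contigs in all, and 5 clusters held 4 or more. Fragments that fit several contigs of a cluster are divided among them by RSEM, the quantification tool, so values within a cluster depend on each other.

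CL4030 held the most, with 8 of its 17 contigs in the set. All 8 stood between 0 and 1.19 FPKM in both lines at 0 h, and at 24 h they lay between 106.80 and 292.05 FPKM in LmHC and between 138.20 and 309.35 FPKM in LmLC. CL4030.Contig3_All was the highest of them in LmHC, with 0.15 FPKM at 0 h and 292.05 FPKM at 24 h, and had 0.34 and 305.75 FPKM in LmLC. CL4030.Contig4_All was the highest in LmLC, with 0.56 and 309.35 FPKM, and had 0.31 and 251.79 FPKM in LmHC. Summed over its 17 contigs, the cluster went from 0.97 to 1930.54 FPKM in LmHC and from 4.03 to 2088.33 FPKM in LmLC. It was lower in LmHC than in LmLC at both times: 7 of the 8 contigs were lower at 0 h and 6 of 8 at 24 h. CL4030.Contig12_All had the widest gap at 0 h, with 0.10 FPKM in LmHC and 1.19 FPKM in LmLC, and it had 229.44 and 218.64 FPKM at 24 h.

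CL6598 held 7 of its 11 contigs in the set, and all 7 were higher in LmHC than in LmLC at 24 h. Their log2 ratios of the lines at 24 h ran from 0.42 to 0.93, whereas at 0 h they ran from -0.04 to 0.14. CL6598.Contig9_All went from 0.74 to 472.77 FPKM in LmHC and from 0.79 to 277.43 FPKM in LmLC. CL6598.Contig7_All had the largest gap, going from 0.31 to 361.79 FPKM in LmHC and from 0.32 to 189.20 FPKM in LmLC. Summed over 11 contigs, the cluster reached 2116.63 FPKM in LmHC and 1310.09 FPKM in LmLC, from 4.66 and 4.14 FPKM. Without this cluster, 83 of 132 contigs of the set were higher in LmHC at 24 h.

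CL3835 held 6 of its 14 contigs in the set. All 6 were higher in LmLC at 0 h, 5 of 6 were higher in LmHC at 24 h, and all 6 had the larger change in LmHC. CL3835.Contig12_All showed the widest difference of changes in the set, at 1.85 on the log2 scale: it was listed at 0 at 0 h and had 199.91 FPKM at 24 h in LmHC, and it had 0.84 and 101.76 FPKM in LmLC. CL3835.Contig4_All went from 0.35 to 533.42 FPKM in LmHC and from 0.54 to 353.55 FPKM in LmLC. The exception at 24 h was CL3835.Contig10_All, with 131.87 FPKM in LmHC and 155.69 FPKM in LmLC. Summed over 14 contigs, CL3835 reached 2345.64 FPKM in LmHC and 1615.83 FPKM in LmLC, from 1.26 and 4.88 FPKM.

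In 9 of the 20 clusters with 2 or more contigs in the set all of them were higher in LmHC at 24 h, in 3 all were higher in LmLC, and in the other 8 they were divided. Many of these clusters held only 2 contigs of the set, and 64.7% of the whole set was higher in LmHC. How many clusters would be undivided without a tie between their contigs was not computed, so no shared lean of clusters is read from these counts. CL9633 was the only cluster whose contigs were all in the set, and its 3 contigs summed to 3.12 FPKM at 0 h and 429.85 FPKM at 24 h in LmHC, and to 3.63 and 371.17 FPKM in LmLC.

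**Figure D4:**
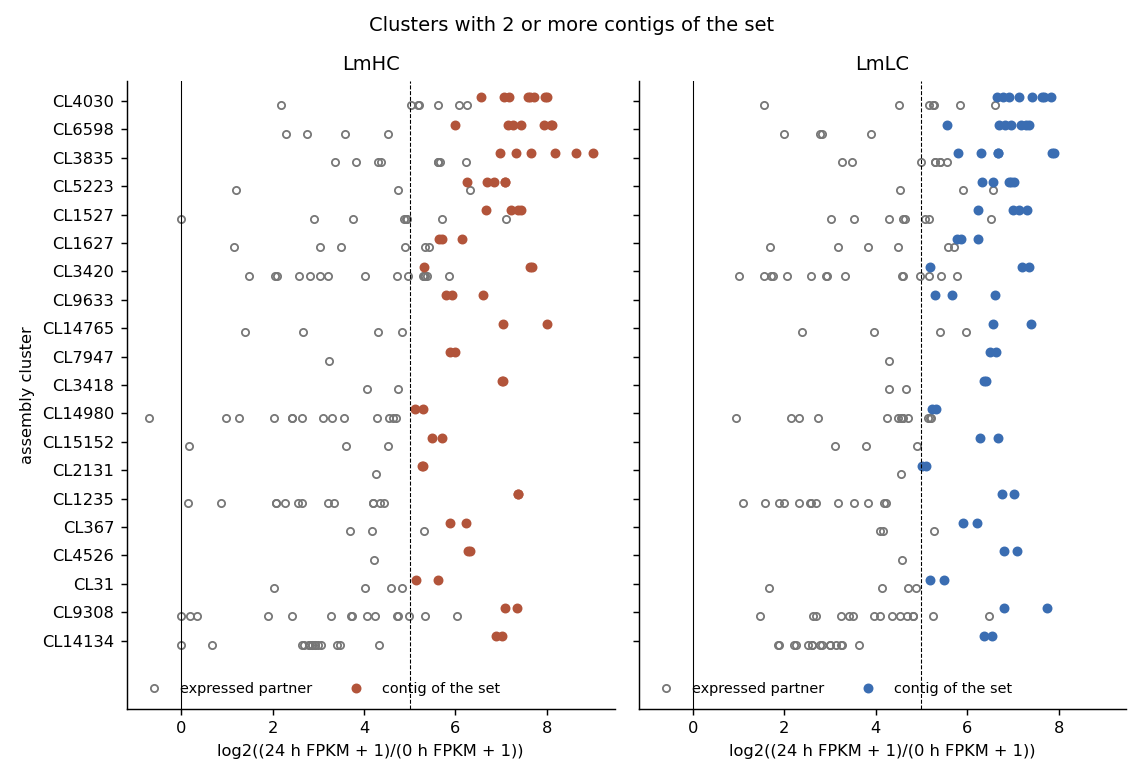
Log2 change from 0 h to 24 h in LmHC (left) and LmLC (right) for the 20 clusters with 2 or more contigs in the set. Filled points are contigs of the set, open points are their expressed partners, and the dashed line is the limit of 5. In CL4030, CL6598 and CL3835 the filled points number 8, 7 and 6, and partners lie to their left.

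The partners of the set, meaning the other contigs of the 45 clusters, were mostly higher at 24 h too. The clusters held 313 partners, of which 292 were expressed. At least 2-fold higher in both lines were 254 of the 292 (87.0%), and 0 were at least 2-fold lower in both. The background was 23.8% higher and 17.5% lower in both lines among expressed contigs of clusters. The partners had a median log2 change of 3.52 in LmHC and 3.78 in LmLC, against -0.22 and -0.15 for expressed contigs of other clusters. For comparison, other clusters were taken that held abundant contigs outside the set at least 2-fold higher in both lines. They had 957 expressed partners under 100 FPKM in at least 1 line, of which 77.1% were at least 2-fold higher in both. The 292 partners of the set had no such upper limit, and 22 of them reached 100 FPKM in both lines, so the shares are not matched for level. Shared direction within a cluster was thus common also where the increase was smaller, and the part that the division of fragments by RSEM has in it was not tested.

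**Figure D5:**
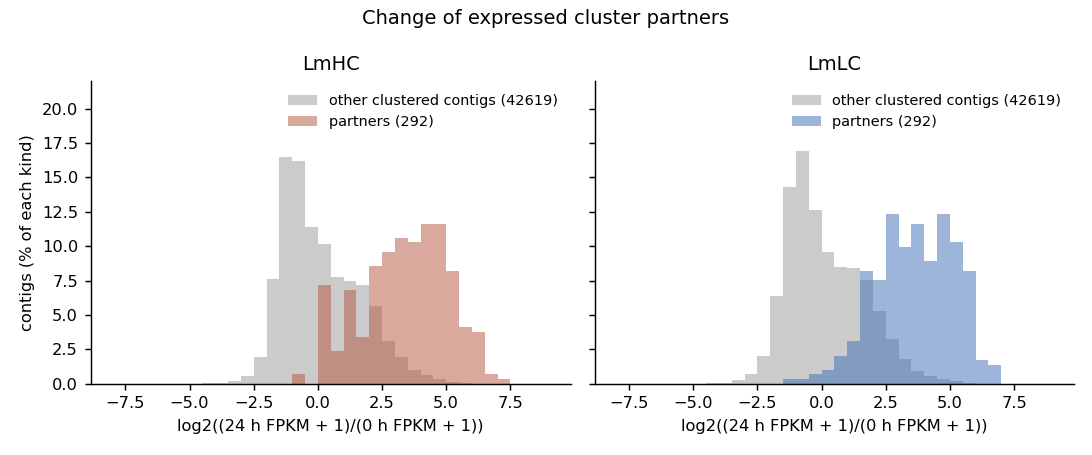
Distribution of the log2 change in LmHC (left) and LmLC (right) for the 292 expressed partners, in colour, and the 42619 expressed contigs of other clusters, in grey, as percent of each kind. The partners centre on 3.52 and 3.78, and the other contigs on -0.22 and -0.15.

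Partners are contigs that the rule left out, so meeting 1 limit meant missing the other, unless listed at 0 in both 0 h libraries. A log2 change of 5 or more in both lines was seen in 42 of them, all under 100 FPKM in at least 1 line at 24 h, and 22 others reached 100 FPKM in both lines with a smaller change. By the mean log2 change of both lines, the largest increases among partners were in CL1527.Contig9_All and CL495.Contig8_All. CL1527.Contig9_All went from 0.07 to 146.11 FPKM in LmHC and from a listed 0 to 90.31 FPKM in LmLC. CL495.Contig8_All was listed at 0 in both lines at 0 h and had 105.01 and 90.84 FPKM at 24 h. Of the 313 partners, 100 had a value of 0 at 0 h in each line and a value above 0 at 24 h in each line. How common this was among other contigs was not computed, so it is not read as a trait of the partners. The lowest changes by the mean of both lines, though not in each line, were in scarce contigs of CL911. CL911.Contig18_All had 5.08 FPKM at 0 h and 1.18 FPKM at 24 h in LmLC and was listed at 0 in LmHC. CL911.Contig15_All had 3.45 and 3.65 FPKM in LmLC, and 0.60 FPKM and a listed 0 in LmHC.

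The summed level of every one of the 45 clusters was at least 2-fold higher at 24 h in both lines, and in 40 the log2 change was 5 or more in both. The median log2 change of the cluster sums was 6.52 in LmHC and 6.71 in LmLC. The contigs of the set made up a median of 73.6% of the cluster sum at 0 h and 73.4% at 24 h in LmHC, and of 72.2% and 73.0% in LmLC. The LmHC median at 0 h covers only 42 clusters, because the sum of the others was 0 in that library. Over all 45 clusters added together, which gives weight to abundant clusters, they made up 8.20% and 60.1% in LmHC and 7.26% and 57.5% in LmLC. Without the most abundant cluster, CL911, they went from 39.6% to 72.4% in LmHC and from 38.6% to 69.0% in LmLC. They held at least 90% of the 24 h sum in 9 clusters and under 50% in 10, in both lines.

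The smallest change of a cluster sum was in CL911, where a contig of the set sat among partners that were already abundant at 0 h. CL911.Contig22_All, which was chosen for this after its values were seen, went from 0.99 to 197.53 FPKM in LmHC and from 1.61 to 176.04 FPKM in LmLC. Its partner CL911.Contig16_All went from 347.46 to 1527.24 FPKM in LmHC, the highest value of that library, and from 317.36 to 1368.67 FPKM in LmLC. CL911.Contig7_All went from 342.10 to 924.35 FPKM in LmHC and from 353.13 to 858.81 FPKM in LmLC. Summed over its 22 contigs, CL911 went from 1876.29 to 7382.70 FPKM in LmHC and from 1948.42 to 6927.63 FPKM in LmLC, a log2 change of 1.98 and 1.83. CL911.Contig22_All held 2.68% and 2.54% of that sum at 24 h.

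In 7 of the 42 clusters where the share could be computed in all libraries, the contigs of the set gained at least 10 percentage points of the cluster sum from 0 h to 24 h in both lines, and in 2 they lost as much. The clusters with a gain were examined after the values were seen. In CL1235 the 2 contigs of the set went from 8.25% to 62.5% of the sum in LmHC and from 14.2% to 63.1% in LmLC. In CL9308 the 2 contigs went from 0% to 52.1% in LmHC and from 9.06% to 52.1% in LmLC, and in CL147 the 1 contig went from 13.8% to 45.3% and from 12.2% to 46.1%. The rule favours such a gain, because it took the contigs with the largest changes and left the rest of the cluster as partners.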

How the data were processed

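RNA from 4 groups of 1 library each was measured: LmHC and LmLC, at 0 h and 24 h. The authors deposited FPKM values for 111761 contigs, rounded to 2 decimals. The submitters' processing notes list Bowtie2 version 2.2.5 and RSEM version 1.2.8. No assembler, contig length or filter is given in the sources used here. The deposited FPKM values carry no fragment counts, so depth is unknown.

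The rule for the set was applied to these values. Ratios were log2 of (FPKM + 1) over (FPKM + 1), and a contig was called higher or lower at 2-fold. Expressed contigs had a mean of at least 1 FPKM over the 4 libraries. Partners are contigs that share a CL name with a contig of the set. The script for the rule was tested on simulated data with an assumed depth. Increases were planted there only in contigs that started above the low starters, so that test does not cover contigs starting under 1 FPKM. Computation was done in Python 3.11.15 with pandas 2.3.3, numpy 2.4.6 and matplotlib 3.10.9.

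Named were, by rule, the highest contigs at 24 h, those with the largest and smallest changes and line ratios, contigs of the 3 clusters with most of the set, contigs listed at 0 in one 0 h library, those nearest each limit, and the partners with the highest levels and the largest and smallest changes; of the 21 contigs in the 3 clusters, those not named are given by their ranges. The set and these choices were made with earlier results of these data known. Alternatives were pseudocounts of 0.1 and 5, other limits on level and change, 2 scalings, sums by cluster, and other filters on partners.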

Additional observations from a re-analysis of the deposited data

How the results depend on the processing

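Other settings gave 81 values for the size and FPKM share of the set, its median changes, its contigs 2-fold apart at 24 h and its partners. Of these, 55 stayed within 1.5 times (0.58 for a log2 median) and 26 did not. The rule asks for an increase in both lines, so a reversed median change was not possible and none is counted. With a pseudocount of 5 the rule found 50 contigs with 2.76% of the FPKM in LmHC and 2.58% in LmLC, median log2 changes of 5.73 and 5.59, and 0 contigs 2-fold apart between the lines at 24 h in either direction. With a pseudocount of 0.1 the median changes were 7.41 and 7.41. A level limit of 50 FPKM gave 233 contigs, a median of 6.07 in LmHC and 2 contigs toward LmHC, and one of 200 FPKM gave 58 contigs, 3.24% and 3.09% of the FPKM and 0 contigs toward either line. A limit on the change of 4 gave 220 contigs, 7.07% in LmLC and medians of 5.64 and 5.78, and one of 6 gave 90 contigs and 0 toward LmLC. Contigs 2-fold higher in LmHC numbered 2 with equal column totals and 4 with median-of-ratios scaling, and sums by cluster gave 1 toward LmLC. These shifts follow from the limits and pseudocounts by construction; for the scalings the cause was not tested. The partner share stayed between 74.0% and 94.7%. No paired analysis was possible because the groups share a single replicate number and the results come from no test. No library could be left out, since each group has 1. The direction between the lines under other pseudocounts and scalings was checked after the values were seen and is not among the 81 values: of 61 contigs that started at 1 FPKM or more, 26 changed more in LmHC as reported and 38 with median-of-ratios scaling.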

Other observations

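Some stand-alone contigs of the set had close numbers, which was noticed after the set was seen, and the share among other contigs was not computed. Of the 51, 14 lay within 5 numbers of another, among them Unigene9122_All, Unigene9123_All, Unigene9125_All and Unigene9127_All. These 4 had 4.44 to 5.88 FPKM in LmHC and 3.78 to 4.51 FPKM in LmLC at 0 h, and 228.27 to 334.66 FPKM and 252.17 to 396.12 FPKM at 24 h. All 4 were higher in LmLC at 24 h. Unigene20305_All is numbered directly before Unigene20306_All, 1 of the 2 contigs that met the other limits from a listed 0. The contigs numbered directly before or after a stand-alone contig of the set, 82 of them expressed and outside the set, were at least 2-fold higher in both lines in 49 cases (59.8%). The background was 22.6% of expressed stand-alone contigs, and 54.5% of 154 expressed contigs numbered beside the other stand-alone contigs at 100 FPKM or more that were at least 2-fold higher in both lines. What the numbering follows is not given in the sources used here.

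Unigene36441_All was picked out after the values were seen because the lines differed at 0 h and not at 24 h. It had 1.04 FPKM in LmHC and 5.15 FPKM in LmLC at 0 h, and 967.65 and 900.93 FPKM at 24 h, with log2 changes of 8.89 and 7.20.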
